A study of Mus musculus with 6 samples.

Results

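The plasminogen activators, their receptor and their serpin inhibitors were followed in total RNA of EOMA cells, a line derived from a mouse endothelial tumour and labelled vascular endothelial. The members are the 5 genes Plau, Plat, Plaur, Serpine2 and Serpinb2, chosen by name, and each has 1 of the 22564 rows of the deposited expression table. Cells were cultured in 21% oxygen and harvested at 24 h: 3 libraries come from the DMSO (vehicle) arm and 3 from the arm given DHTS, at 2 µM. The compound, 15,16-dihydrotanshinone I, is one of the tanshinones of Salvia miltiorrhiza root. Both groups are labelled as the same line, the labels name no genetic change, and no untreated cells enter the comparison. Whether replicate libraries stem from separate cultures is not in the labels, so the p-values reflect library-to-library spread alone, and that may be technical.

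Plasminogen is a circulating proenzyme that the serine proteases urokinase (Plau) and tissue plasminogen activator (Plat) cut into plasmin, which degrades fibrin and matrix proteins. Urokinase acts mainly at the cell surface, held by its glycolipid-anchored receptor (Plaur), while the tissue activator works best on fibrin. Serpins such as protease nexin-1 (Serpine2) and plasminogen activator inhibitor 2 (Serpinb2) trap these proteases in stable complexes. In endothelial cells this system is known for clearing fibrin and for opening matrix during vessel sprouting.

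Of the 5 members, 4 were expressed and rose with DHTS, and Serpinb2 was listed at 0 in every library. Rises were common: 28.2% of all tested genes were called higher (limma adjusted p under 0.05). For 33.0% all DHTS libraries lay above all DMSO libraries. Serpine2 rose 3.88-fold and Plau 3.02-fold in mean FPKM (fragments per kilobase of transcript, scaled to library size, a level per length). Plaur rose 1.17-fold and Plat 1.15-fold. Urokinase thereby moved from the lowest of the 3 abundant members with DMSO to the highest with DHTS.

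Promoter windows were matched for 3 of the 5 members, Plaur, Serpine2 and Serpinb2, and not for Plau and Plat. They are shown to set a small rise, a large rise and a gene listed at 0 beside the letters before each start. They are the 250 bases before the start in RefSeq, build GRCm38.p6, written 5′ to 3′ on the gene's strand. Capitals mark matches, on either strand, to TGANTCA (the AP-1 motif), TGACGTCA (its longer form), GGGCGG (the GC box) or TATAAA (the TATA box). The last 2 motifs were added after the sequences were seen. The windows are chr7:24462233-24462482 (plus strand) for Plaur, chr1:79858666-79858915 (minus strand) for Serpine2 and chr1:107511173-107511422 (plus strand) for Serpinb2.
Plaur: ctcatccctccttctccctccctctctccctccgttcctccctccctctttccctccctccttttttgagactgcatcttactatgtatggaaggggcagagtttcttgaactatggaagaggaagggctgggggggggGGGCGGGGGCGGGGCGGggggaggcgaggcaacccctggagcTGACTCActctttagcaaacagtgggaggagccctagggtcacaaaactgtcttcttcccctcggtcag
Serpine2: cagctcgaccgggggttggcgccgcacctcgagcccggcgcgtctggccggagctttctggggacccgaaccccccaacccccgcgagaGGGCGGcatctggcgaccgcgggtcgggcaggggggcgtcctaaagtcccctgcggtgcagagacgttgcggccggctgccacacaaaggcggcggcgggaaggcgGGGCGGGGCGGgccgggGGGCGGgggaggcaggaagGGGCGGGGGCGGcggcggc
Serpinb2: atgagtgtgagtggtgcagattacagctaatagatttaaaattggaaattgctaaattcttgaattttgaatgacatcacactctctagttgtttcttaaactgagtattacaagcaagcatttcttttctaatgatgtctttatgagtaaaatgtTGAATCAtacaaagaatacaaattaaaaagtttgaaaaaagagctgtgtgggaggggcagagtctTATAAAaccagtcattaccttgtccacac
The Plaur window holds the AP-1 match TGACTCA at 69 to 63 bases before the start and 3 GC boxes, the last 2 of which overlap by 1 base. In the Serpine2 window there are 6 GC boxes, a pair of which overlap by 1 base, and no AP-1 or TATA match. The last 31 bases of this window, with 2 of the boxes, lie inside the deposited Serpine2 locus, which starts upstream of the RefSeq start. In GENCODE M21 the gene has 3 coding transcripts and begins farther upstream, at 79861180, so the whole window lies inside it. Bases before other starts of Serpine2 were not searched. The Serpinb2 window holds an AP-1 match, TGAATCA, at 94 to 88 bases before the start and a TATA box at 29 to 24 bases before it. G and C make up 59.6% of the Plaur window, 78.8% of the Serpine2 window and 32.4% of the Serpinb2 window, against a median of 52.4% over 32851 windows of the same length. Among those windows 6.75% hold TGANTCA, 1.55% TGACGTCA, 32.7% GGGCGG and 12.4% TATAAA. A match of letters is no evidence of binding, the windows of Plau and Plat are missing, and nothing on the changes is drawn from these letters.

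The libraries held 9343191 to 12255303 estimated fragments, and libraries of a group had correlations across genes of 0.986 to 0.989 (genes are no independent replicates). The labelled cell type was checked against 8 endothelial markers. None reached a mean of 1 FPKM: their summed level was 0.124 to 0.304 FPKM with DMSO and 1.58 to 2.15 FPKM with DHTS. Tie1 and Emcn were listed at 0 in all 6 libraries, and Cdh5, Kdr, Tek and Erg in the 3 DMSO libraries. Erg stood at 0.671, 0.348 and 0.429 FPKM and Vwf at 0.874, 0.716 and 1.45 FPKM with DHTS. Of 7 epithelial markers 4 were tested, and Krt18 rose from 136 ± 2.79 to 197 ± 4.89 FPKM and Krt8 from 1.35 ± 0.283 to 3.79 ± 0.912 (DMSO to DHTS, mean ± SD of 3 libraries, here and below). Elf3 fell from 34.9 ± 0.855 to 19.6 ± 1.49 and Epcam from 24.2 ± 1.25 to 17.3 ± 0.650 FPKM. Among 6 macrophage markers 2 were tested and both fell, Cd14 from 34.9 ± 3.13 to 23.8 ± 1.97 and Csf1r from 8.16 ± 0.748 to 4.50 ± 0.228 FPKM, with Itgam at 0 throughout. The summed macrophage level was 41.8 to 46.9 FPKM with DMSO and 27.1 to 31.0 FPKM with DHTS, and the epithelial sum 195 to 198 and 232 to 243 FPKM. None of 6 fibroblast markers reached 1 FPKM, with Col1a1 at 0.778 ± 0.0832 and 0.562 ± 0.0933 FPKM and Pdgfra at 0.301 ± 0.0446 and 0.0809 ± 0.0281. Their sum was 1.07 to 1.25 FPKM with DMSO and 0.729 to 0.821 FPKM with DHTS, with Lum at 0 throughout. The part of these markers in the results below was not tested, and in bulk RNA a change in the make-up of the cells and a change of RNA per cell cannot be told apart.

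The comparison of DHTS with DMSO asks how the compound changed each transcript. Genes with a mean of at least 1 FPKM were tested with limma on log2(FPKM + 1), a scale that understates the change of low genes, with Benjamini-Hochberg adjustment over 11416 genes and a threshold of 0.05. Among the 5 members 4 entered the fit and these 4 were called higher, where 28.2% of all tested genes were called higher and 21.9% lower, 50.1% in all. Their DHTS libraries all lay above their DMSO libraries, as was so for 33.0% of tested genes, and 26.8% lay wholly below. Quantile normalization changed the split over all genes from 3218 higher and 2502 lower to 2551 higher and 3411 lower, and it shifted the median over tested genes by −0.10 on the log2 scale, from 0.03 to −0.07.

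Urokinase, Plau, lies on chromosome 14 at 20836662 to 20843388 (mm10, plus strand), with 11 exons in its longest coding transcript. Its level was 45.5, 42.2 and 44.8 FPKM in the DMSO libraries and 134, 134 and 132 FPKM in the DHTS libraries. All DHTS libraries stood far above all DMSO libraries, and the libraries of each group lay close together. The mean went from 44.2 ± 1.72 to 133.5 ± 1.27 FPKM, with a log2 fold change of 1.57 (SE 0.04, limma adjusted p = 3.30e-07). Taken over the 9 pairings of a DHTS with a DMSO library, the fold ran from 2.90 to 3.18. The values rest on 918 to 3306 estimated fragments per library.

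Tissue plasminogen activator, Plat, lies on chromosome 8 at 22757744 to 22782847 (plus strand, 14 exons). It was at 48.8, 47.1 and 49.1 FPKM with DMSO, against 55.6, 56.9 and 54.5 FPKM under DHTS. The groups did not overlap, but the step between them was small. From 48.3 ± 1.08 to 55.7 ± 1.19 FPKM the log2 fold change was 0.20 (SE 0.04, limma adjusted p = 0.00522). That is a gain of 7.38 FPKM, against 89.3 FPKM for urokinase. A span of the same chromosome from 119910360 to 124345724, whose 75 genes were all listed at 0 in each DMSO library, does not include Plat or any listed gene. These 75 genes share the same deposited locus entry, and 65 of them were above 0 in all DHTS libraries. The span was picked for its zeros with DMSO, so a tested gene in it could only rise. Of the 75, 52 were tested and all 52 were called higher, which is no separate result. They are among 63 tested genes at 0 in all DMSO libraries. Whether these zeros stand for absent RNA was not tested, and neither was their cause.

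Plaur, the urokinase receptor, lies on chromosome 7 at 24462500 to 24475873 (plus strand, 7 exons). Its level was 62.0, 58.1 and 59.9 FPKM with DMSO and 66.65, 73.35 and 71.05 FPKM with DHTS. Each DHTS library was above each DMSO library, the closest pair by 1.08-fold. The mean was 60.0 ± 1.95 FPKM and then 70.35 ± 3.403 FPKM, higher by 0.23 on the log2 scale (SE 0.05, limma adjusted p = 0.00766). Its estimated fragments, 679 to 966 per library, were not whole numbers, which makes its value less certain, and the cause was not tested.

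Protease nexin-1, Serpine2, inhibits thrombin as well as both activators and lies on chromosome 1 at 79794197 to 79858696 (minus strand, 9 exons). It was at 6.89, 8.86 and 8.10 FPKM with DMSO, against 31.9, 31.3 and 29.3 FPKM under DHTS. The lowest DHTS library was 3.31-fold above the highest DMSO library. The mean was 7.95 ± 0.994 FPKM and then 30.8 ± 1.32 FPKM, higher by 1.84 on the log2 scale (SE 0.09, limma adjusted p = 6.41e-06). With 146 to 205 fragments per DMSO library it was the least deeply covered of the 4 expressed members, and its DMSO libraries varied most, with an SD of 12.5% of the mean.

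Plasminogen activator inhibitor 2, Serpinb2, lies on chromosome 1 at 107511423 to 107549271 (plus strand, 8 exons) in the deposited table. It was listed at 0 in all 6 libraries and was not tested. The deposited locus also spans the overlapping gene Serpinb10, which was listed at 0 in 5 libraries and at 0.126 FPKM in DHTS replicate 2. A listed 0 need not mean that no RNA was present, so no limit is drawn from these values.

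**Figure D1:**
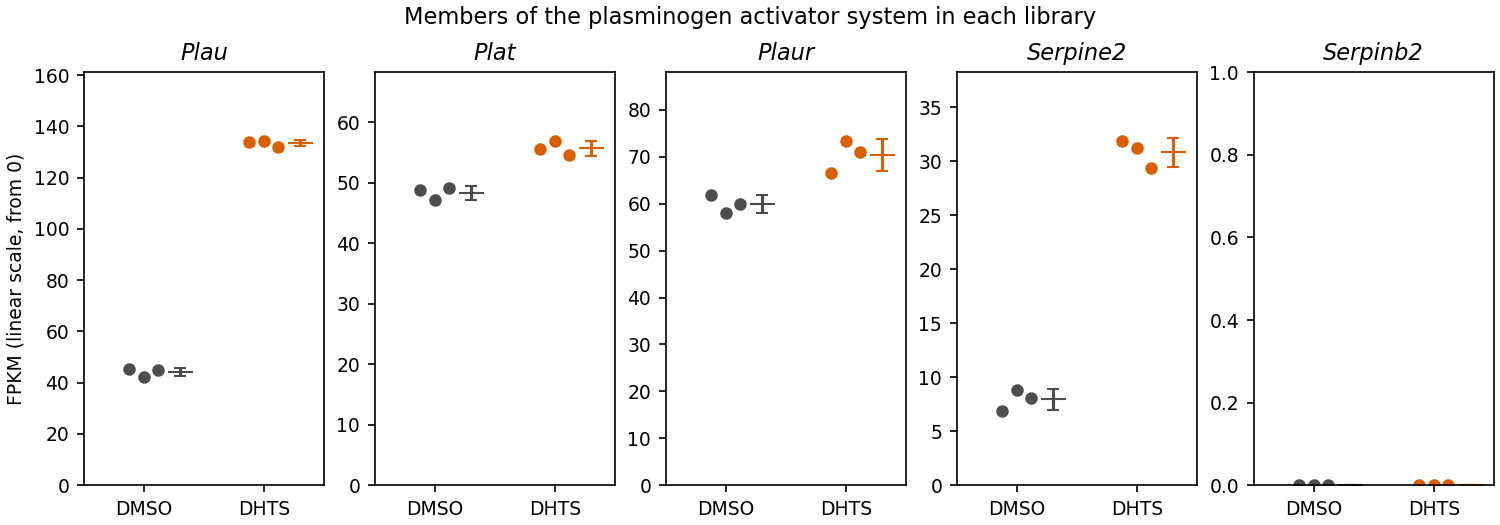
Level of each member in FPKM (linear axes from 0, 1 panel a gene) in the 3 DMSO and 3 DHTS libraries; points are libraries, and bars beside them give the mean ± SD. Plau rises from 44.2 to 133.5 FPKM and Serpine2 from 7.95 to 30.8, Plat and Plaur rise by small steps without overlap, and Serpinb2 is at 0 throughout.

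Placed among all 11416 tested genes by log2 fold change, Serpine2 ranked 228 and Plau 311, within the top 2.00% and 2.72%. Plaur ranked 3528 and Plat 3754, within the top 30.9% and 32.9%. By level, Plau stood within the top 22.9% of tested genes with DMSO and within the top 6.25% with DHTS. Serpine2 moved from the top 70.1% to the top 33.8%. Both large rises passed 2-fold, as did those of 5.83% of tested genes.

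**Figure D2:**
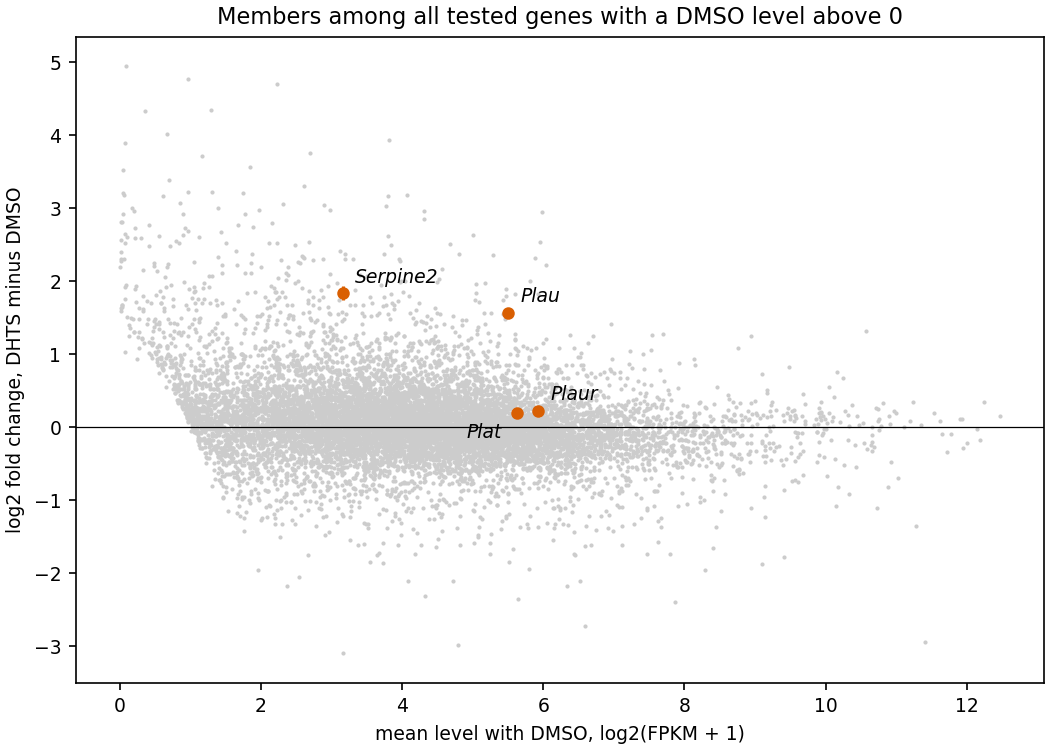
Log2 fold change (DHTS minus DMSO) against the mean DMSO level as log2(FPKM + 1) for 11353 tested genes above 0 with DMSO (grey), with the 4 tested members in orange; bars on the orange points are SE and mostly lie within them. Serpine2 at 1.84 and Plau at 1.57 stand above most genes of their level, while Plaur at 0.23 and Plat at 0.20 lie within the grey band.

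The order of the members by level was the same in every library of a group. With DMSO it ran Plaur, Plat, Plau, Serpine2, Serpinb2, and with DHTS it ran Plau, Plaur, Plat, Serpine2, Serpinb2. No neighbours among the 4 expressed members overlapped in FPKM over the libraries of a group. The closest were Plat and Plau with DMSO, the lowest Plat library at 47.1 FPKM and the highest Plau library at 45.5 FPKM.

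The ratio of Plau to Plaur, a protease and its receptor, was 0.734, 0.727 and 0.748 with DMSO and 2.01, 1.83 and 1.86 with DHTS. It thus crossed 1 in all 3 DHTS libraries. Plau to Plat went from 0.914 ± 0.0180 to 2.40 ± 0.0323. These ratios of FPKM describe transcripts per length, not protein, and no test is given for them because the genes were chosen with results known.

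Serpine2 rose by more than either activator, so the levels of the activators relative to it fell. The ratio of Plat to Serpine2 was 7.08, 5.32 and 6.06 with DMSO and 1.75, 1.82 and 1.86 with DHTS, without overlap. For Plau to Serpine2 the ratio was 6.61, 4.77 and 5.53 with DMSO and 4.21, 4.30 and 4.50 with DHTS. The DMSO libraries of that ratio spread widely, and the lowest of them lay close above the DHTS libraries. The difference between the log2 fold changes of Serpine2 and Plau was not tested.

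Summed, the activators Plau and Plat went from 92.5 ± 2.76 to 189 ± 2.39 FPKM, and Plau made up most of the gain.

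**Figure D3:**
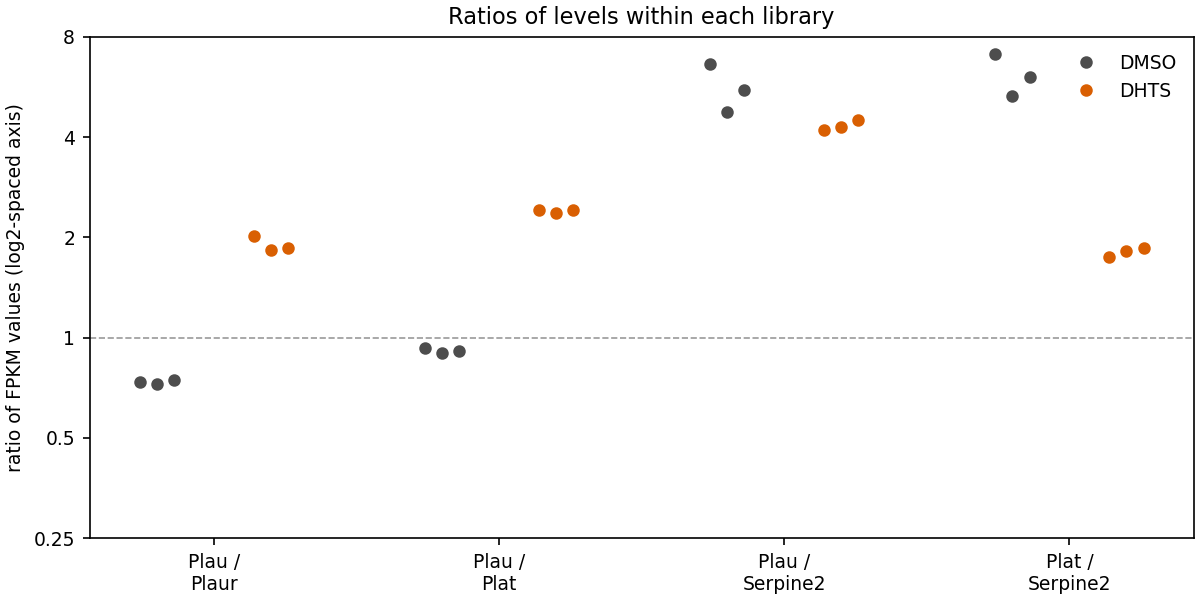
Ratios of FPKM values within each library (log2-spaced axis; grey DMSO, orange DHTS, 1 point a library; dashed line at 1). Plau to Plaur and Plau to Plat cross 1, Plat to Serpine2 falls from 6.15 to 1.81 on average, and Plau to Serpine2 goes from 5.64 to 4.34.

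Other genes of the system were read from 8 lists of related genes, given as counts of calls of the same fit and not as tests of the lists. In 7 of the lists 1 tested gene had a DMSO mean under 1 FPKM, and so passed the filter on low values only through its DHTS level. These 7 genes were Hpn, Serpini1, Serpinb9b, Mst1, F5, Psca and Fosb. The counts and medians below are to be set beside 28.2% higher, 21.9% lower and a median of 0.03 over all tested genes.

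The list of plasminogen and proteins that bind it, which also holds the protease Hpn, had 5 of 7 genes tested. Of these 3 were higher, Hpn among them, and 2 lower, with a median of 0.15. The DHTS libraries held 0.0362, 0.0338 and 0 FPKM of Plg, the substrate itself, which was listed at 0 in the DMSO libraries. Plgrkt, the membrane receptor for plasminogen, rose from 33.7 ± 2.05 to 44.9 ± 3.76 FPKM (log2 fold change 0.40). Anxa2, the surface annexin that docks plasminogen and Plat, fell from 428 ± 15.3 to 319 ± 8.42 FPKM (−0.42). Its partner S100a10 rose by 0.15, so the components of that complex moved in opposite directions. Eno1, a glycolytic enzyme that also binds plasminogen, fell by 0.72, and its estimated fragments were not whole either. Hpn, a membrane serine protease, was at 0, 0.0650 and 0 FPKM with DMSO, against 3.55, 1.52 and 2.04 FPKM under DHTS.

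Partners of the urokinase receptor and the receptors that clear its complexes had 13 of 15 genes tested, 2 higher and 8 lower, with a median of −0.32, where 28.2% of all tested genes were higher and 21.9% lower. Lrp1, the endocytic receptor that takes up urokinase and tissue activator bound to serpins, was at 18.0, 13.8 and 17.5 FPKM with DMSO, against 42.0, 35.3 and 29.0 FPKM under DHTS. It rose without overlap (log2 fold change 1.06, SE 0.15, limma adjusted p = 0.00107). Of its relatives, Lrp2 (megalin) fell by 1.84 from 10.6 ± 0.556 to 2.26 ± 0.219 FPKM, and Vldlr by 0.99 from 23.0 ± 1.91 to 11.3 ± 2.67 FPKM, while Sorl1, at 4.92 ± 0.712 and 5.56 ± 0.637 FPKM, was not called (adjusted p = 0.334). Igf2r, which binds Plaur and plasminogen, was the other gene called higher (0.30). Mrc2, a collagen receptor that associates with Plaur, fell by 0.79. Each of the integrin chains Itgav, Itgb1, Itgb3, Itgb5 and Itga5, some of which pair with Plaur at adhesion sites, was lower, by 0.30 to 0.48, while Itga3 was not called (0.06, adjusted p = 0.483). The Itgav call (limma adjusted p = 0.0262) was lost without DHTS replicate 3 (0.0549) or DMSO replicate 1 (0.0653), 2 (0.0671) or 3 (0.0627), over a range of 1.88e-07 to 0.0671, which left 7 genes of the list lower.

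Serpins outside clade B had 4 of 18 genes tested, with 1 higher and 2 lower and a median of 0.06. Serpinf1, a serpin without inhibitory action, rose from 5.30 ± 1.15 to 7.77 ± 0.982 FPKM (0.49, limma adjusted p = 0.0363). That call was lost without DHTS replicate 1 (0.0842) or 3 (0.106) or DMSO replicate 1 (0.0678) or 3 (0.0522), and also with no filter, quantile normalization or scaled fragments, over a range of 0.0315 to 0.106 in all alternatives, and 0 serpins of the list were then higher. Serping1, the inhibitor of complement C1 and of kallikrein, fell from 25.4 ± 1.09 to 5.15 ± 0.728 FPKM (−2.11, SE 0.10, limma adjusted p = 4.02e-06). Serpinh1, a collagen chaperone, fell by 0.37. The large fall of Serping1 and the large rise of Serpine2 took the levels of these serpins past each other, from 25.4 over 7.95 FPKM to 5.15 under 30.8 FPKM.

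Clade B holds Serpinb2 and mostly intracellular serpins, and 4 of the other 25 were tested, with 2 higher, 1 lower and a median of 0.32. Serpinb6a rose from 101.5 ± 4.76 to 154 ± 6.10 FPKM (0.60) and Serpinb9b from 0.916 ± 0.0777 to 5.14 ± 0.518 FPKM. Serpinb9, an inhibitor of granzyme B, fell from 19.95 ± 0.818 to 17.3 ± 0.386 FPKM (−0.19, limma adjusted p = 0.0245). This call was lost without DHTS replicate 2 (0.0578) or 3 (0.0681) or DMSO replicate 1 (0.0732) or 2 (0.0770), over a range of 0.00352 to 0.0770, leaving 0 lower. The estimated fragments of these 3 genes were whole, but they have close copies, and how reads that match several copies were assigned is not given. By place, the 4 tested clade B genes all lie on chromosome 13. The 12 clade B genes on chromosome 1, Serpinb2 among them, were all untested, with 8 listed at 0 in every library and a highest value of 2.23 FPKM.

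Substrates of plasmin or of the activators had 6 of 14 genes tested, 3 higher and 1 lower, with a median of 0.12. Fn1, the matrix protein fibronectin, fell from 224 ± 5.74 to 139 ± 7.50 FPKM (−0.69), again with fragments that were not whole. Ltbp1, which tethers latent TGF-beta to matrix, rose from 2.95 ± 0.261 to 4.515 ± 0.337 FPKM. Bdnf, a neurotrophin whose precursor plasmin can cut, rose from 3.21 ± 0.218 to 4.60 ± 0.616 FPKM (0.41, limma adjusted p = 0.0180), a call lost without DMSO replicate 1 (0.0578) and with quantile normalization, over a range of 7.83e-04 to 0.150. Mst1, the precursor of macrophage-stimulating protein, was at 0.196, 0.0985 and 0.494 FPKM with DMSO, against 3.83, 2.17 and 2.75 FPKM under DHTS. The fibrinogen genes Fga, Fgb and Fgg were listed at 0 in all libraries.

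Coagulation genes had 7 of 17 tested, 3 higher and 3 lower, with a median of 0.03. F5, 1 of the 3 higher, went from 0.846 ± 0.0752 to 1.66 ± 0.193 FPKM (0.53, limma adjusted p = 0.00873). Its call was lost with quantile normalization (0.187), over a range of 4.97e-06 to 0.187. Procr, the endothelial protein C receptor, went from 22.7 ± 0.838 to 106 ± 6.74 FPKM (2.17, SE 0.06, limma adjusted p = 3.81e-07), a larger log2 fold change than that of any member. Thbd, which switches thrombin to protein C, rose by 0.58. Tgm2, a transglutaminase that crosslinks matrix, fell by 1.15, and F2rl1, a protease-activated receptor, by 0.60. F3, the tissue factor that starts coagulation, stood at 54.5 ± 1.95 and 55.5 ± 1.79 FPKM and was not called (adjusted p = 0.666). The estimated fragments of Tgm2 and F3 were not whole.

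Genes that share the Ly6/uPAR fold with Plaur had 7 of 21 tested, 3 higher and 2 lower, with a median of −0.20. Lynx1, a modulator of nicotinic receptors, rose from 10.2 ± 0.228 to 23.0 ± 0.908 FPKM (1.10, SE 0.06). Psca was at 0.164, 0 and 0.962 FPKM with DMSO, against 2.43, 1.66 and 2.19 FPKM under DHTS. Ly6e fell from 288 ± 0.875 to 223 ± 7.58 FPKM (−0.37). Lypd1 fell by 0.28 (limma adjusted p = 0.0446), a call lost on leaving out any 1 of the 6 libraries (0.0549 to 0.129, over a range of 0.00817 to 0.129 in all alternatives), which left 1 gene of the list lower each time.

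All 14 transcription factors listed for their known action on urokinase genes were tested, with 7 higher, 4 lower and a median of 0.26. Fosl1, an AP-1 subunit, was at 21.9, 20.01 and 21.6 FPKM with DMSO, against 66.5, 67.8 and 68.0 FPKM under DHTS (log2 fold change 1.63, SE 0.05, limma adjusted p = 6.12e-07). Another AP-1 subunit, Fosb, rose from 0.429 ± 0.0444 to 2.80 ± 0.270 FPKM, and the ETS factor Etv4 rose from 14.0 ± 0.819 to 32.6 ± 3.63 FPKM (1.16). Nfkb1, a subunit of NF-kB, fell from 134 ± 2.71 to 72.9 ± 2.54 FPKM (−0.87). Whether any of these acts on Plau in these cells was not measured.

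**Figure D4:**
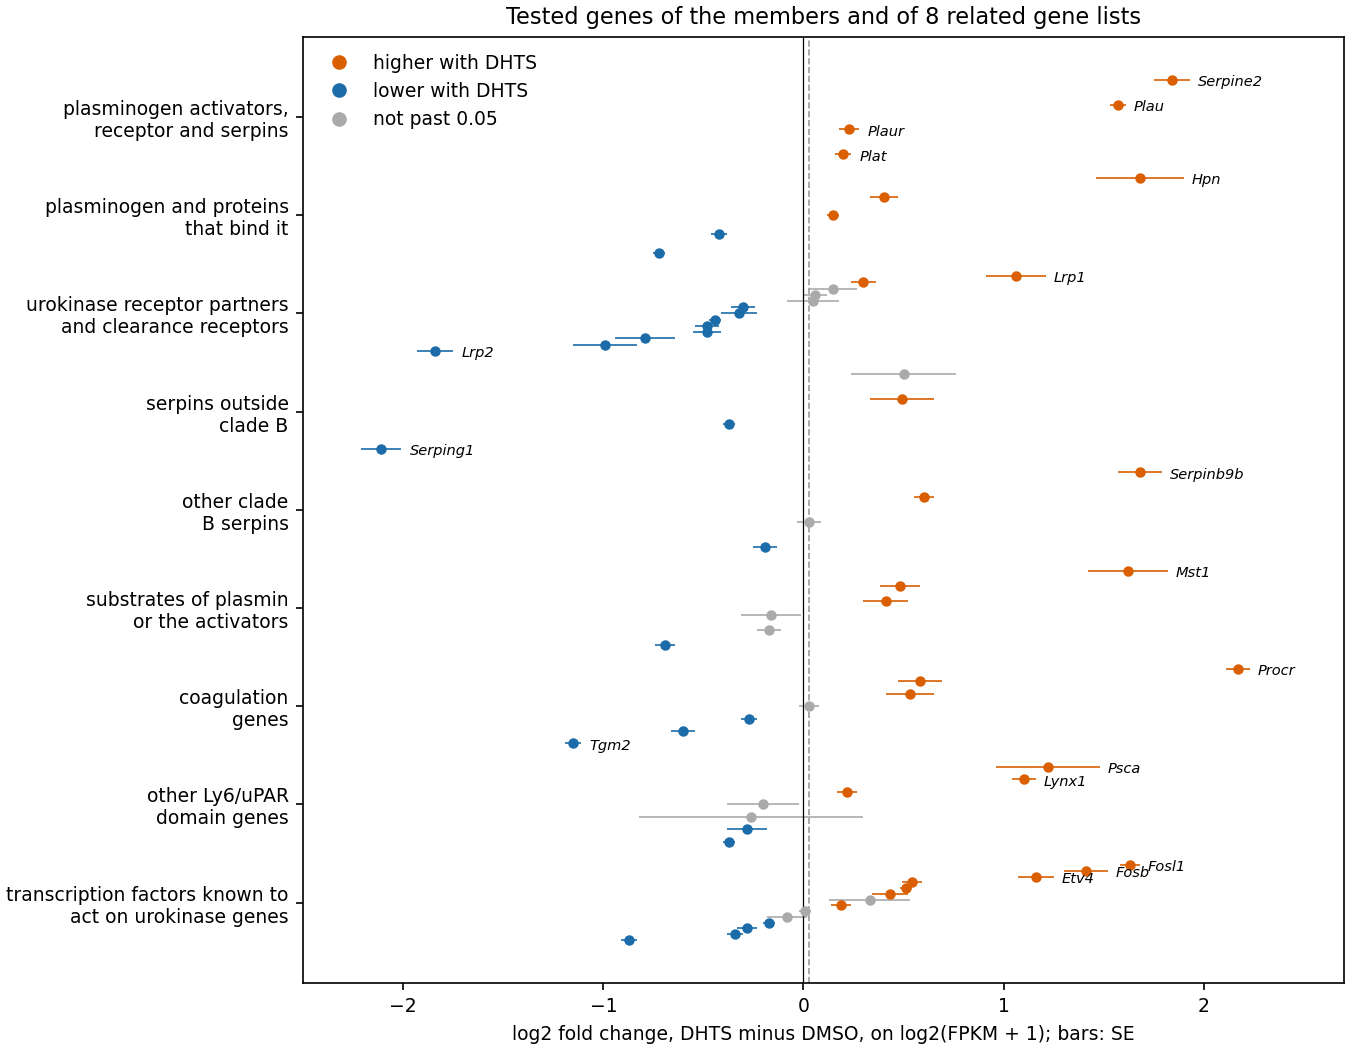
Log2 fold change on log2(FPKM + 1), DHTS minus DMSO, with SE bars, for the 4 tested members (top) and the tested genes of 8 related lists; orange is called higher, blue lower, grey not past 0.05, and the dashed line is the median of all tested genes, 0.03. Among these genes Procr at 2.17 lies farthest up and Serping1 at −2.11 farthest down. Of the 13 receptor partners and clearance receptors 8 are called lower, against 21.9% of all tested genes. Itgav, 1 of the 8, loses its call without DHTS replicate 3 or any 1 DMSO library.

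The genes most like each member were taken as the nearest by Euclidean distance over the 6 libraries, on log2(FPKM + 1) centred on the DMSO mean, among 10819 other genes. Nearest to Plau were Dusp1 (distance 0.0563), a MAP kinase phosphatase, then Fosl1 (0.0993) and Dapk1 (0.101). Dusp1 went from 34.9 ± 1.68 to 104 ± 0.693 FPKM. Serpine2 had Egln3 (0.156), Rasa4 (0.194) and Plcxd2 (0.203) nearest, with Egln3, a prolyl hydroxylase that acts on HIF, going from 12.4 ± 1.07 to 45.1 ± 1.74 FPKM. For Plaur they were Lamtor1 (0.05002), Tmem252 (0.0627) and Tmsb4x (0.0638), and for Plat Siah1a (0.0282), Ubap2l (0.0445) and Sharpin (0.0454). With 2 conditions this distance mostly reads the size of the step between them, and nothing on shared control follows from it.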

How the data were processed

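Total RNA of 6 libraries was sequenced on an Illumina HiSeq instrument, per the labels' protocols. Tools named in the submitters' processing notes are Cuffdiff 2.2.1, Cufflinks, HISAT2 2.0.4 and fastp 0.20.0, and the build is mm10. What each tool did, which annotation release served and whether strand was used are not given in these sources. The authors deposited FPKM, scaled to gene length and library size, for 22564 protein-coding genes. A second deposited block is a signal, estimated fragments multiplied by 1 factor per library. With that factor estimated here, 92.2% to 92.9% of nonzero values came within 0.1 of whole fragments, so no count model was fitted. Depth gives the fragments behind each value.

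Libraries were grouped by title. Genes with a mean of at least 1 FPKM entered the limma fit (limma 3.58.1, R 4.3.3, trend and robust options, treatment as the only term, two-sided) on log2(FPKM + 1), checked on simulated data. SE is limma's moderated standard error. Members and the 12 lists (8 of related genes, 4 of cell type markers) were chosen with earlier results of these data known; 1 of 164 list entries was not analysed here, and 1 gene of the system is not reported here. Named genes are the members, up to 4 called genes with the largest change in each list (the 2 highest where none was called), and the 3 genes nearest each tested member (leaving out gene-model names and genes at 0 in all DMSO libraries). Others named were chosen after their values were seen: Itgav, Itgb1, Itgb3, Itgb5, Itga5, Itga3, Igf2r, Sorl1, S100a10, Plg, F3, the fibrinogen genes, Serpinb5, Serpinb10 and Mmp9, those with a low DMSO mean, and the markers listed at 0. Alternatives left out each library, set a replicate block, used median-ratio or quantile scaling, dropped the trend and robust options of limma, lowered the pseudocount to 0.1, removed the filter or raised it to 5 FPKM, or took scaled fragments (mean of at least 10). After the data were seen, a fit without the chromosome 8 span was added, and the ratio of Plat to Serpine2. Locus coordinates are the deposited ones counted from 1, exon numbers are from GENCODE M21 (longest coding transcript) and promoter windows from RefSeq.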

Additional observations from a re-analysis of the deposited data

How the results depend on the processing

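Plau, Plat, Plaur and Serpine2 kept their direction and their call in each of 15 alternatives, with log2 fold changes of 1.53 to 1.60, 0.16 to 0.22, 0.18 to 0.26 and 1.73 to 1.95, and highest adjusted p of 5.50e-05, 0.0217, 0.0285 and 2.14e-04 (limma). Leaving out 1 library gave 1.54 to 1.60, 0.18 to 0.22, 0.20 to 0.26 and 1.75 to 1.91. The replicate block counted 3053 genes higher and 2384 lower. It left limma adjusted p-values of 5.50e-05 (Plau), 0.0217 (Plat), 0.0284 (Plaur) and 2.14e-04 (Serpine2). Same-numbered libraries deviated together at −0.045, 0.063 and 0.012, and libraries of different number at −0.08 to 0.075. With so few libraries these values cannot tell whether the numbers pair them. Of 870 values of 59 other named genes under alternatives, 38 were losses of a call that the main fit had made. Another 2 reversed, both of genes not called: F3 to −0.02 with median-ratio scaling and Sorl1 to −0.02 with quantile normalization. Small list counts moved, and not every move is given here. The lost calls of Bdnf, F5 and Itgav given above also bear on the counts of their lists. Hpn, Mrc2, F5, Psca and Fosb were not tested at a mean of 5 FPKM. Higher serpins outside clade B numbered 0 instead of 1 with no filter, quantile normalization and scaled fragments (0 to 1 without 1 library). Higher clade B serpins were 1 instead of 2 at a mean of 5 FPKM and 5 with no filter, and lower ones 0 to 1 without 1 library. Higher substrates were 0 instead of 3 at a mean of 5 FPKM; lower ones were 2 instead of 1 with median-ratio scaling, no filter and scaled fragments, and 3 with quantile normalization. Lower Ly6/uPAR genes were 1 instead of 2 with no filter, the block, scaled fragments and without any 1 library (1 each). Endothelial markers went from 0 to 2 higher with no filter and 1 on scaled fragments, fibroblast markers from 0 to 1 lower in both, and epithelial markers from 2 to 1 higher at a mean of 5 FPKM. Filters change which genes are tested; other causes were not tested. Serpinb2 gave no value under any alternative.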

Other observations

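Serpinb5 (maspin), a clade B serpin on chromosome 1, had 1.84, 1.79 and 2.23 FPKM in the DHTS libraries, while each DMSO library listed it at 0. It was not tested, being under a mean of 1 FPKM over the 6 libraries. Mmp9, a gelatinase that plasmin can activate through other proteases, was also under that level, with DMSO libraries at 0.470, 0.622 and 0.734 FPKM above DHTS libraries at 0.154, 0.173 and 0.104 FPKM. Both genes were chosen for mention with their values known.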
